A study of Mus musculus with 6 samples.

Results

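Iron and hemoglobin handling in the mouse cornea was examined through 10 genes: Hba-a2, Hp, Trf, Tfrc, Slc11a2, Slc11a1, Fth1, Ftl1, Slc40a1 and Cp. They were taken by symbol from a list that was chosen with earlier results of these data known, and all 10 were present. Hba-a2 named 2 loci, so the genes occupied 11 of the 28539 rows of the deposited expression table. No row of these genes was merged with another named gene.

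The study profiled poly(A) RNA from whole corneas of female C57BL/6J mice, 6 to 8 weeks old, before and after an alkali burn. The 3 groups had 2 samples each: untreated corneas (day 0), corneas 5 days after the burn and corneas 15 days after it, the last of which the labels place in the regression phase. No group carries a transgene or a drug, and day 0 is untreated rather than sham-operated. Whether a group's 2 samples are different animals, and how many corneas went into each, is not in the labels.

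Iron reaches cells bound to transferrin, which is taken up through the transferrin receptor, and leaves the endosome through the transporter Slc11a2. Iron that is not used is stored in ferritin, a shell of heavy and light chains, and leaves the cell through ferroportin, working with ferroxidases such as ceruloplasmin. Hemoglobin freed from red cells is bound by haptoglobin, and macrophages recycle its iron after heme oxygenase opens the heme ring. The healthy cornea has no blood vessels, and vessels grow into it after an alkali burn.

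Cells set the output of several of these mRNAs through iron-responsive elements, short hairpins in the untranslated regions that bind the iron regulatory proteins. In the 5′ untranslated region such a hairpin holds back translation when iron is scarce, and in the 3′ untranslated region of Tfrc it protects the mRNA from decay. The hairpins are shown because FPKM, the unit of the deposited values, counts mRNA and not its translation. In each line the capitals mark the bulged C and the loop CAGTGN of the searched pattern, in which at least 4 of the 5 flanking base pairs can form. The letters are the DNA letters of the transcript strand, read from GENCODE transcripts of the mouse build mm10.
Fth1, 5′, chr19:9982733-9982759, plus strand: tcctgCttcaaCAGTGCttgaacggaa
Ftl1, 5′, chr7:45459780-45459806, minus strand: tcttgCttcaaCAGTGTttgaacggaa
Slc40a1, 5′, chr1:45925466-45925492, minus strand: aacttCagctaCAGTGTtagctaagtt
Tfrc, 3′, chr16:32631220-32631246, plus strand: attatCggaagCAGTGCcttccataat
Tfrc, 3′, chr16:32631599-32631625, plus strand: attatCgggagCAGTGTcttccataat
Tfrc, 3′, chr16:32631664-32631690, plus strand: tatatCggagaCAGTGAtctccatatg
Tfrc, 3′, chr16:32631711-32631737, plus strand: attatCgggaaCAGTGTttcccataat
Slc11a2, 3′, chr15:100395154-100395180, minus strand: gccatCagagcCAGTGTgtttctatgg

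All 5 pairs could form in the ferritin, Slc40a1 and Tfrc hairpins, and 4 of 5 in that of Slc11a2. The search read the transcript strand only. The pattern was held by the 5′ untranslated region of 169 of 20103 genes (0.841%) and the 3′ untranslated region of 849 of 20744 genes (4.09%). A match is a description of the letters and does not show a working element.

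The table holds 1 FPKM value per group (fragments per kilobase of transcript scaled to library size), with a lower and upper bound that the authors' software gave. No single-sample value was available, so no p-value is given and the bounds, printed in parentheses after each value, are the only error. A gene was called apart when the ratio of FPKM + 1 between groups was at least 2-fold, the higher group had at least 1 FPKM and the intervals did not overlap. Among loci at 5 FPKM or more the median interval reached 54.3%, 52.9% and 52.3% of the value to either side at day 0, 5 and 15. The number of loci at 1 FPKM or more was 14071, 14067 and 13664. In whole tissue, fewer cells of a type and less RNA per cell cannot be told apart. Of the corneal epithelial marker list, 8 genes could be used and all had at least 1 FPKM in every group. Their summed FPKM was 12050 at day 0, 2475 at day 5 and 3503 at day 15. Most of the day 0 sum, and of its fall, was 1 gene with a wide interval, Aldh3a1. It had 9150 FPKM (998 to 17302) at day 0, 303 at day 5 and 866 at day 15. By the same rule, 3 of the 8 were called down from day 0 at day 5 and 1 was called up. At day 15 the call was down for 1 gene and up for 1. Over all loci, 2.5% were lower and 3.42% higher and apart at day 5, and 1.81% and 2.91% at day 15. A count of 1 in so short a list cannot be told from these shares. Krt12, the defining keratin of the corneal epithelium, had no usable value at day 0 because its status there was not OK.

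At day 5, 6 of the 11 loci (5 of the 10 genes) were higher than at day 0 with intervals apart: both Hba-a2 loci, Hp, Slc11a1, Slc40a1 and Cp. No locus was lower and apart. Over all 15576 loci that could be compared, 3.42% were higher and apart and 2.5% were lower and apart. The median log2 ratio of FPKM + 1 was 1.94 over the 11 loci and -0.09 over all loci, and 10 of the 11 values were higher at day 5. Trf, Tfrc, Slc11a2, Fth1 and Ftl1 were not apart.

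At day 15, 5 of the 11 loci (4 of the 10 genes) were higher than at day 0 and apart, namely both Hba-a2 loci, Hp, Slc40a1 and Cp, and none was lower. The background was 2.91% higher and 1.81% lower of 15186 loci. The median log2 ratio was 1.59 over the 11 loci and -0.10 over all loci. Both burn comparisons use the same day 0 samples, so their counts are not independent. Between day 15 and day 5 no member was apart, against a background of 0.395% higher and 0.388% lower of 14683 loci, and 3 of the 11 values were higher at day 15. Hp and Slc40a1 were under 1 FPKM at day 0 and entered the comparisons with day 0 through their burned corneas.

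**Figure D1:**
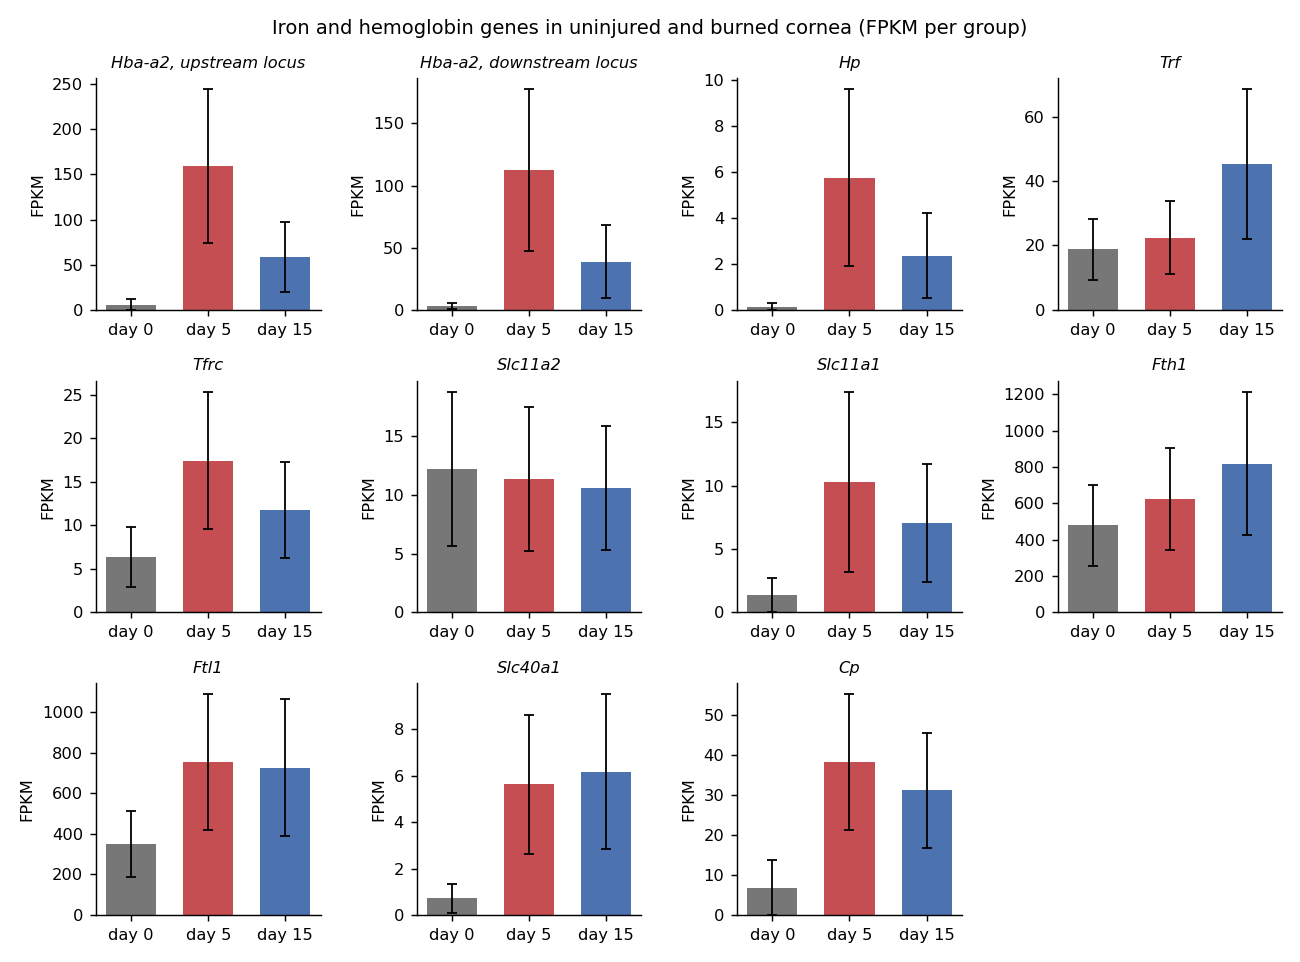
FPKM (linear axis from 0, its own scale in each panel) of each of the 11 loci at day 0, day 5 and day 15; bars are the pooled values of the groups and vertical lines the authors' intervals. The day 0 interval lies below both burn intervals for the Hba-a2 loci, Hp, Slc40a1 and Cp, while the intervals of Trf, Slc11a2, Fth1 and Ftl1 overlap in all 3 groups.

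The hemoglobin alpha chain gave the largest differences from day 0 among the members on the log2 scale of FPKM + 1. In plain FPKM ratio Hp was larger at both times from a day 0 level near 0. Hba-a2 encodes the adult alpha globin, and its gene is duplicated on chromosome 11. The upstream Hba-a2 locus (chr11:32283675-32284493, plus strand) had 5.12 FPKM (0 to 11.7) at day 0, 159 (74.6 to 244) at day 5 and 58.8 (19.8 to 97.9) at day 15. Day 0 was the low group and overlapped neither burn group, while the intervals of day 5 and day 15 overlapped. The FPKM ratio to day 0 was 31.1-fold at day 5, or 6.38-fold between the nearest bounds, and 11.5-fold at day 15, or 1.69-fold between the nearest bounds.

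The downstream Hba-a2 locus (chr11:32296492-32297310, plus strand) had 2.82 FPKM (0.402 to 5.24) at day 0, 112 (47.5 to 177) at day 5 and 39.0 (9.76 to 68.2) at day 15. The order was the same, with day 0 apart from both burn groups and the burn groups overlapping. The ratio to day 0 was 39.9-fold at day 5 (9.06-fold between the nearest bounds) and 13.8-fold at day 15 (1.87-fold between the nearest bounds). On the scale of FPKM + 1 the log2 ratios at day 5 were 4.71 for the upstream and 4.89 for the downstream locus, and at day 15 they were 3.29 and 3.39.

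The upstream locus lies at the gene that GENCODE names Hba-a1 (chr11:32283511-32284465), although the table names both loci Hba-a2. The sequences show how little tells the copies apart. The annotated Hba-a1 and Hba-a2 transcripts are 699 and 554 bases long, and over 538 aligned bases they differ at 1 base, position 381 of the coding sequence counted from its start. That base is in capitals in the 29 bases around it.
Hba-a1, chr11:32284329-32284357, plus strand: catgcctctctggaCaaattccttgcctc
Hba-a2, chr11:32297146-32297174, plus strand: catgcctctctggaTaaattccttgcctc

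The codons are GAC and GAT, which encode the same amino acid. The bases next to the RefSeq starts (table build GRCm38.p6) were not compared. A 230-base stretch before them at Hba-a2 was found before the start of Hba-a1 with 0 differences. The split of reads between the 2 loci is therefore uncertain, and their summed level is the firmer quantity. It was 7.94 FPKM (2.28 to 14.9) at day 0, 272 (165 to 378.5) at day 5 and 97.8 (49.0 to 146.6) at day 15, with the bounds combined as if the loci were independent. The sum was 34.2-fold and 12.3-fold that of day 0 at the earlier and the later time. With the loci summed, day 15 was also lower than day 5 and apart, at a log2 ratio of -1.47, whereas neither locus alone was apart in that comparison.

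The beta chains followed the same order. Hbb-bs, an adult beta globin, had 1.77 FPKM (0 to 3.93), 39.6 (18.8 to 60.3) and 12.9 (4.16 to 21.7) at day 0, 5 and 15, and was apart from day 0 at both times. Hbb-bt, its neighbour, was listed at 0 at day 0 and had 6.03 FPKM (0.920 to 11.1) at day 5, where it was apart, and 1.35 (0 to 2.96) at day 15, where it was not. At day 15 the summed Hba-a2 level stood at 36.0% of its day 5 level and Hbb-bs at 32.7%. The ratio of summed alpha to summed beta globin FPKM was 4.47, 5.96 and 6.85 at day 0, 5 and 15. The embryonic globins Hba-x and Hbb-y were listed at 0 in all 3 groups.

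Markers of red cell precursors were low in every group. Of 12 usable erythroid markers, only 2 reached the filter in each comparison with day 0, and the other 10 could not be called. Of these 2, 0 were apart. Over all loci, 3.42% were higher and 2.5% lower and apart at day 5, and 2.91% and 1.81% at day 15. A count of 0 of 2 cannot be told from these shares. The summed FPKM of the list was 10.2, 7.39 and 4.96 at day 0, 5 and 15. Most of that sum was Alas2, the erythroid enzyme of heme synthesis, at 8.27, 5.79 and 4.01 FPKM, on a locus that spans 3.18 times the annotated gene. Slc4a1, the band 3 anion exchanger of the red cell membrane, was listed at 0 at day 0 and stayed under 0.03 FPKM after the burn. The markers listed at 0 numbered 2, 2 and 1 of the 12.

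Most markers of blood vessels had higher values in the burned groups, the direction of the globins. Of 9 usable blood endothelial markers, 5 were higher and apart at day 5 and 6 at day 15, beside 3.42% and 2.91% of all loci. Only 6 of the 9 had at least 1 FPKM at day 0. The others entered through the burned corneas, could only be called higher, and are all among those called at both times. Their summed FPKM was 21.9, 81.8 and 89.0. Not all moved: Kdr, another marker of the list, had 3.66, 3.47 and 3.88 FPKM and was not apart. Emcn, which encodes the endothelial surface protein endomucin, had 7.97, 34.7 and 40.5 FPKM. The summed endothelial level was highest at day 15, whereas the globins were highest at day 5. The part of vessels in the globin result was not tested.

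**Figure D2:**
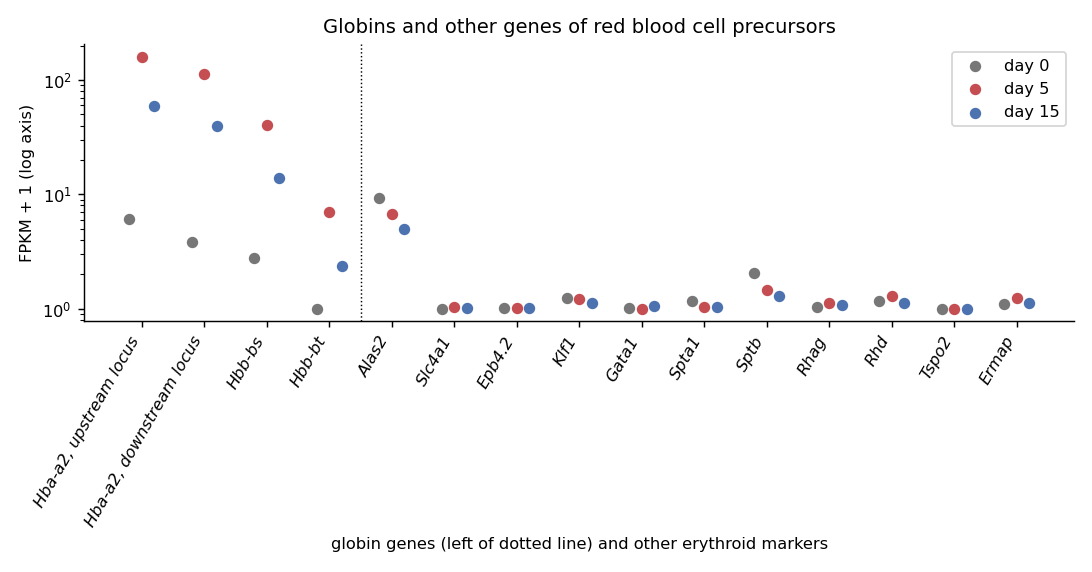
FPKM + 1 (log axis, no intervals drawn) of 4 globin loci, left of the dotted line, and of 11 erythroid markers, right of it, with 1 point for each group. The globins are lowest at day 0 and highest at day 5, whereas the markers other than Alas2 and Sptb stay close to the floor of 1, and Alas2 is highest at day 0.

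Hp encodes haptoglobin, the plasma protein that captures free hemoglobin. Hp (chr8:109574456-109579172, minus strand) had 0.116 FPKM (0 to 0.290) at day 0, 5.74 (1.89 to 9.59) at day 5 and 2.36 (0.502 to 4.21) at day 15. Day 0 was low and overlapped neither burn group, and the burn groups overlapped. The log2 ratio of FPKM + 1 was 2.60 at day 5 and 1.59 at day 15. The FPKM ratios of 49.7-fold and 20.4-fold rest on a day 0 value whose interval reaches 0, and the nearest bounds gave 6.53-fold and 1.73-fold. Its level at day 15 was 41.1% of that at day 5.

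Of the genes that act after haptoglobin in hemoglobin and heme clearance, 1 of 9 that passed the filter was apart at each burn time. It was Hmox1, the inducible heme oxygenase, with 3.53 FPKM (0.0272 to 7.02) at day 0, 39.8 (19.5 to 59.99) at day 5 and 26.8 (12.4 to 41.2) at day 15. Over all loci, 3.42% at day 5 and 2.91% at day 15 were higher and apart, and a list this short cannot be told from that share. Cd163, the macrophage receptor for haptoglobin bound to hemoglobin, had 3.20, 3.53 and 2.41 FPKM and was not apart. Hpx, the plasma heme carrier hemopexin, stayed under 0.06 FPKM in every group. Blvrb, a biliverdin reductase, had the highest level of the list at 92.8, 78.4 and 124 FPKM and was not apart. Lrp1, a receptor that takes up heme bound to hemopexin, had 42.5, 71.1 and 48.1 FPKM and was not apart either.

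Trf encodes transferrin, the iron carrier of plasma, and had its highest value at day 15. Trf (chr9:103208865-103230581, minus strand) had 18.8 FPKM (9.37 to 28.2) at day 0, 22.5 (11.2 to 33.7) at day 5 and 45.1 (21.9 to 68.4) at day 15. All 3 intervals overlapped, so the day 15 value, 2.40-fold that of day 0 and 2.01-fold that of day 5, was not apart from either. The gene shares 2108 of its 3320 exon bases with the predicted gene Gm20425 on the same strand, so the split of reads between them is uncertain.

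Tfrc encodes the transferrin receptor, whose mRNA carries the 4 hairpins printed above in its 3′ end. Tfrc (chr16:32608896-32632794, plus strand) had 6.35 FPKM (2.94 to 9.77) at day 0, 17.4 (9.53 to 25.3) at day 5 and 11.7 (6.23 to 17.2) at day 15. The day 5 value was the highest at 2.74-fold that of day 0, and the intervals overlapped by 0.237 FPKM. With the groups rescaled by a median ratio or an upper quartile, the log2 ratio at day 5 went from 1.32 to 1.42 and the intervals came apart. At day 15 the ratio to day 0 was 1.85-fold and the intervals overlapped. The FPKM ratio of Trf to Tfrc was 2.96, 1.29 and 3.85 in the 3 groups in order of time.

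The related transporters Slc11a2 and Slc11a1 had different patterns of values. Slc11a2, the divalent metal transporter of endosomes and of the gut (chr15:100387736-100428150, minus strand), had 12.2 FPKM (5.62 to 18.8), 11.4 (5.27 to 17.5) and 10.6 (5.31 to 15.9) at day 0, 5 and 15. These values lay within 1.15-fold of each other with wide overlap. The log2 ratio at day 5 was -0.09 as deposited and 0.002 with either rescaling, so it has no stable direction. The locus shares 402 exon bases with Gm5475 on the other strand.

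Slc11a1, which moves metal ions out of the phagosome in macrophages and neutrophils (chr1:74375148-74386127, plus strand), had 1.37 FPKM (0 to 2.74) at day 0, 10.3 (3.16 to 17.4) at day 5 and 7.05 (2.39 to 11.7) at day 15. Day 5 was apart from day 0 by 0.412 FPKM at a ratio of 7.50-fold, or 1.15-fold between the nearest bounds. At day 15 the ratio was 5.15-fold and the intervals overlapped by 0.349 FPKM, so the call was not met. The 2 burn groups overlapped each other. The FPKM ratio of Slc11a2 to Slc11a1 was 8.90 at day 0, 1.11 at day 5 and 1.5 at day 15.

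Markers of phagocytes differed between the same groups. Of 13 usable macrophage markers, 4 were higher and apart at day 5 and 7 at day 15, and their summed FPKM was 173 at day 0, 700.0 at day 5 and 1102 at day 15. Lyz2, which encodes lysozyme and led that list, had 68.3, 385 and 685 FPKM. Of 11 usable neutrophil markers, 7 passed the filter at day 5 and 5 at day 15, of which 6 and 4 were higher and apart, with summed FPKM of 37.7, 1648 and 863. Only 3 of the 11 had at least 1 FPKM at day 0. The others that passed did so through the burned corneas and could only be called higher, so these counts are partly set by the filter. Of all loci, 3.42% and 2.91% were higher and apart at the same times. S100a9, a calcium-binding protein of neutrophils, had 19.5, 242 and 63.1 FPKM. The macrophage sum was highest at day 15 and the neutrophil sum at day 5, the time at which Slc11a1 and Hp were highest. The part of these cells in the values of Slc11a1, Hp, Slc40a1 and Cp was not tested.

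The ferritin chains were the most abundant members in every group. Fth1, the heavy chain that oxidises iron as it enters the shell (chr19:9980600-10001633, plus strand), had 479 FPKM (258 to 700.1) at day 0, 624 (344 to 905) at day 5 and 819.5 (426 to 1213) at day 15. The intervals of all 3 groups overlapped, and the ratio to day 0 was 1.30-fold at day 5 and 1.71-fold at day 15. Its level stood above that of 98.4%, 98.9% and 99.1% of the loci with a gene symbol at 1 FPKM or more in the 3 groups. The deposited locus spans 4.67 times the annotated gene and reaches into Best1, so reads of that neighbour may be included.

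Ftl1, the light chain that favours the mineral core (chr7:45457944-45459886, minus strand), had 349.6 FPKM (188 to 511) at day 0, 752 (417 to 1087) at day 5 and 726 (390.3 to 1062) at day 15. The burn values were 2.15-fold and 2.08-fold that of day 0, past the 2-fold threshold, but the intervals overlapped and the gene was not apart. It shares 464 of 1340 exon bases with Gm22133 on the same strand and Gm10252 on the other. Summed ferritin FPKM was 829, 1376 and 1546 in the 3 groups. The ratio of Fth1 to Ftl1 was 1.37 at day 0, 0.831 at day 5 and 1.13 at day 15, so the light chain had the higher value at day 5 only, within overlapping intervals. A further ferritin row, Fthl17, was listed at 0 in all groups.

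Slc40a1 encodes ferroportin, the exporter of iron from macrophages and other cells. Slc40a1 (chr1:45908070-45925616, minus strand) had 0.724 FPKM (0.103 to 1.34) at day 0, 5.63 (2.63 to 8.63) at day 5 and 6.18 (2.86 to 9.51) at day 15. Day 0 was low and overlapped neither burn group, and the burn groups lay within 1.10-fold of each other. The FPKM ratio to day 0 was 7.78-fold at day 5 and 8.55-fold at day 15, and the nearest bounds gave 1.96-fold and 2.13-fold. On the scale of FPKM + 1 the log2 ratios were 1.94 and 2.06. Because its level was low, a pseudocount of 5 brought these to 0.89 and 0.97, below the 2-fold threshold.

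Cp encodes ceruloplasmin, the copper enzyme that oxidises iron as ferroportin releases it. Cp (chr3:19957009-20035310, plus strand) had 6.72 FPKM (0 to 13.8) at day 0, 38.2 (21.2 to 55.2) at day 5 and 31.2 (16.8 to 45.6) at day 15. Day 0 was low and apart from both burn groups, which overlapped each other. The FPKM ratio to day 0 was 5.68-fold at day 5 and 4.64-fold at day 15, or 1.54-fold and 1.22-fold between the nearest bounds. Cp and Slc40a1 were thus both higher and apart at both times, and neither was apart between day 5 and day 15. The deposited Cp locus spans 1.5 times the annotated gene, so reads of a neighbour may be included. The gene shares 108 exon bases with Hps3 on the other strand.

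**Figure D3:**
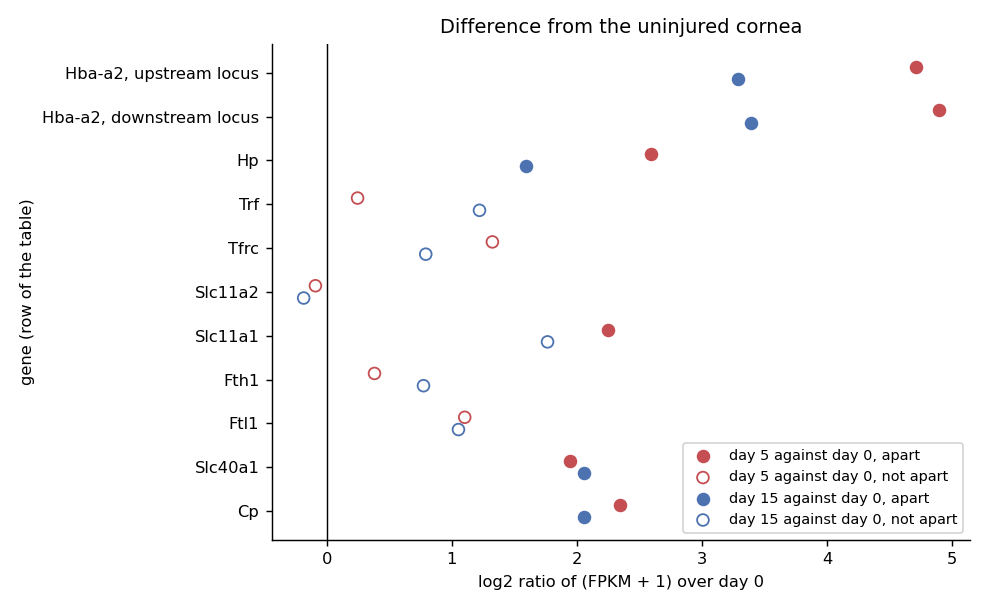
Log2 ratio of FPKM + 1 over day 0 for each of the 11 loci, with red points for day 5 and blue points for day 15; filled points are apart from day 0 and open points are not. The Hba-a2 loci lie farthest to the right, Slc11a2 lies just left of 0, and Slc11a1 is filled at day 5 and open at day 15.

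Haptoglobin, transferrin and ceruloplasmin are known as products of the liver, so hepatocyte markers were examined beside them. Of 10 such markers, 2 passed the filter at day 5 and 1 at day 15, and 0 of these were apart. The rest could not be called, and 3.42% and 2.91% of all loci were higher and apart at the 2 times. Alb, the albumin gene, had 0.00884, 0.00842 and 0.00947 FPKM, Fga was listed at 0 throughout, and 3, 2 and 3 of the 10 were listed at 0. The summed FPKM of 20.1, 8.71 and 17.6 was nearly all Ttr, the thyroid hormone carrier, at 19.3, 6.20 and 16.7. Transferrin and ceruloplasmin are also made in the eye. Iris and pigment markers summed to 368, 87.3 and 254 FPKM, photoreceptor markers to 57.8, 23.4 and 106, and Schwann and myelin markers to 83.3, 64.8 and 75.1. The part of these tissues in the values of Trf and Cp was not tested.

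In order of FPKM, the members at day 0 ran from Fth1 and Ftl1 through Trf, Slc11a2, Cp, Tfrc, both Hba-a2 loci and Slc11a1 to Slc40a1 and Hp. The ferritin chains overlapped each other and lay clear of every other member. At day 5 the upstream and downstream Hba-a2 loci took the places after Ftl1 and Fth1, overlapping each other. The upstream locus moved from above 32.2% to above 95.8% of the loci with a gene symbol at 1 FPKM or more. Cp went from above 39.5% of such loci to above 83.3%, and Slc11a1 from above 4.66% to above 53.3%. Slc11a2 stood above 56.0% of such loci at day 0 and at day 5, while both Hba-a2 loci, Cp and Tfrc passed it in the order of the members. At day 15 the upstream Hba-a2 locus was above 88.2%, Trf above 85.1% and Cp above 79.4%. Neighbours in the order below ferritin overlapped at day 15, from the upstream Hba-a2 locus through Trf, the downstream Hba-a2 locus and Cp.

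The rest of the pathway was described through 72 listed genes, of which 67 were found and 66 could be used. Mcoln1 was left out because its row was merged with another gene. At day 5, 53 passed the filter, and 5 (9.43%) were higher and 1 (1.89%) lower and apart, beside 3.42% and 2.5% of all loci. At day 15, 53 passed, and 4 (7.55%) were higher and 1 (1.89%) lower, beside 2.91% and 1.81%. Of the genes called higher, Hbb-bt at day 5 and Lcn2 at both times were under 1 FPKM at day 0. They passed through the burned corneas and could only be called higher. Between day 15 and day 5, 51 passed, and 0 were higher and 1 (1.96%) lower, beside 0.395% and 0.388%. Their median log2 ratios were -0.08, 0.03 and -0.14 in the 3 comparisons, beside -0.09, -0.10 and -0.01 over all loci. The single lists that follow are short. A count of 0 or 1 apart in them cannot be told from these shares of all loci and is not a result about the list.

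The iron-binding defence proteins had the largest ratios of these lists. Ltf, which encodes lactoferrin, the iron-binding relative of transferrin in neutrophil granules and tears, had 15.7 FPKM (7.94 to 23.4) at day 0, 1243 (304 to 2182) at day 5 and 759.5 (312 to 1207) at day 15. It was apart from day 0 at both times, and the table holds 3 rows of that name, of which the highest is given. The FPKM ratio of Ltf to Trf was 0.834 at day 0, 55.3 at day 5 and 16.8 at day 15. Lcn2, whose protein binds the iron carriers of bacteria, had 0.942 FPKM (0 to 1.95), 32.8 (17.4 to 48.2) and 11.8 (4.599 to 19.0) and was apart from day 0 at both times. Ltf makes up most of the neutrophil sum given above at day 5 and day 15.

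In iron uptake and reduction, 0 of 7 genes that passed were apart at either time. Slc39a8, a zinc and iron importer, had 52.7, 20.3 and 40.1 FPKM, and Steap4, a metalloreductase, had 25.4, 33.4 and 49.7. In storage and ferritin turnover, 0 of 3 were apart. Ncoa4, the receptor that takes ferritin to the lysosome, had 62.9, 20.7 and 23.4 FPKM with overlapping intervals, on a locus 6.97 times as long as its gene, and Pcbp1, an iron chaperone for ferritin, had 27.5, 37.3 and 29.3.

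The sensors that bind the printed hairpins were not apart either. Aco1, iron regulatory protein 1, had 24.4, 22.0 and 17.2 FPKM at day 0, 5 and 15, and Ireb2, iron regulatory protein 2, had 8.39, 9.24 and 6.88. Fbxl5, which marks Ireb2 protein for breakdown when iron is plentiful, had 25.2, 34.4 and 30.8. All 3 genes passed the filter in each comparison. Their activity is set largely at the protein level, which FPKM does not measure.

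Among ferroxidases and the hepcidin axis, 1 of 8 was lower and apart at both times. Hephl1, a ferroxidase related to ceruloplasmin, had 3.87 FPKM (1.65 to 6.09) at day 0, 0.484 (0.0327 to 0.936) at day 5 and 0.411 (0 to 0.850) at day 15. Both burn values were lower than day 0, where those of Cp were higher, and the Hephl1 locus spans 1.56 times the annotated gene. Heph, another ferroxidase, had 1.10, 0.919 and 1.29 FPKM and was not apart. Hamp, the hormone hepcidin that removes ferroportin from the membrane, was listed at 0 at day 0 and day 15 and had 0.447 FPKM (0 to 1.09) at day 5. Hfe and Neo1, which act in the control of hepcidin, were not apart, with 11.9, 11.2 and 13.5 FPKM for Hfe and 5.01, 7.20 and 7.10 for Neo1.

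In heme synthesis, 0 of 9 genes were apart at either time. Alas1, the housekeeping form of the enzyme that starts the pathway, had 42.3 FPKM (20.1 to 64.4), 106 (56.1 to 155) and 101 (55.8 to 145), past the 2-fold threshold at both times with overlapping intervals. Fech, which inserts the iron, had 74.4, 37.5 and 50.0 FPKM. In mitochondrial iron, 0 of 8 were apart; Iscu, the scaffold of iron-sulfur clusters, had 75.2, 35.3 and 36.1 FPKM. Mb, the muscle oxygen store myoglobin, had 18.4 FPKM (0 to 40.0), 10.8 (5.36 to 16.2) and 2.18 (0.665 to 3.70), and was lower and apart at day 15 against day 5. In that comparison, 4 of 8 skeletal muscle markers that passed the filter were lower and apart, where 0.388% of all loci were. At day 15 against day 0, where Mb was not apart, 4 of 9 usable muscle markers were lower and apart, beside 1.81% of all loci. The summed FPKM of these markers was 630, 407 and 88.9. The part of muscle in the Mb values was not tested.

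**Figure D4:**
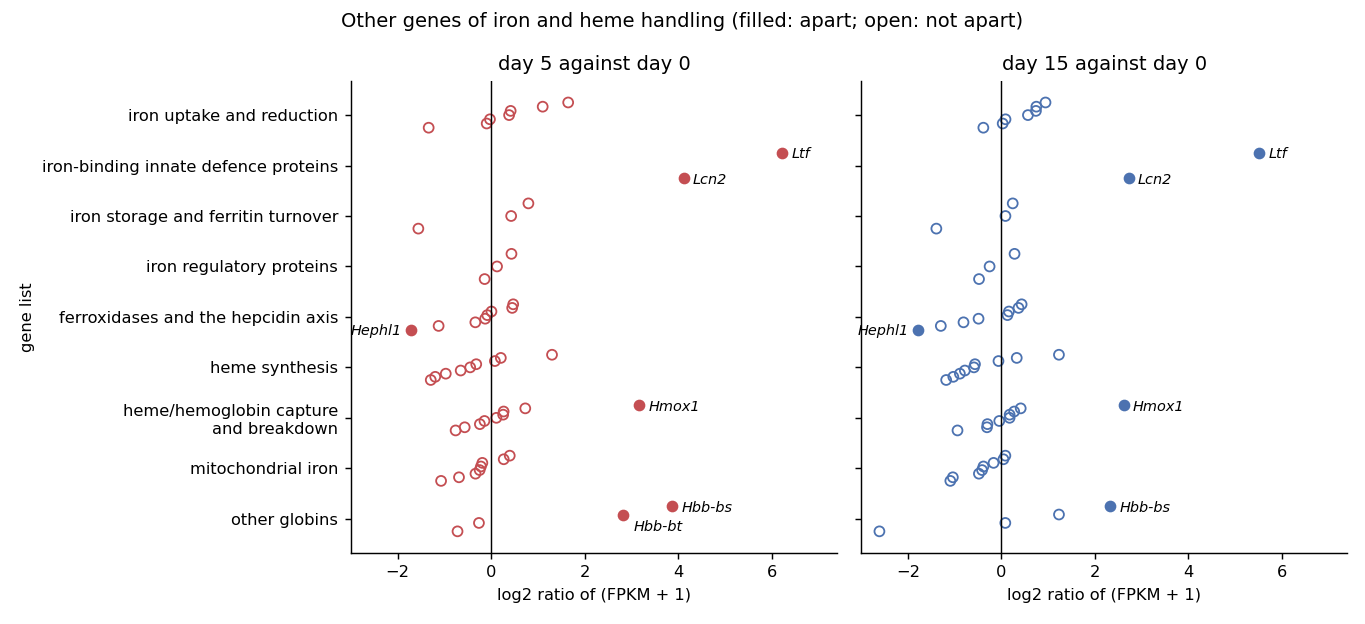
Log2 ratio of FPKM + 1 of the other iron pathway genes with at least 1 FPKM in either group, by list, at day 5 (left panel) and day 15 (right panel) over day 0; filled points are apart and named, open points are not apart. Ltf, Lcn2, Hmox1 and Hbb-bs lie to the right in both panels, Hbb-bt is named in the left panel, and Hephl1 lies to the left in both.

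The loci whose pattern over the 3 groups was nearest to that of the downstream Hba-a2 locus were ranked by the Euclidean distance in the 2 log2 ratios against day 0, among 6504 loci. Srgn, a proteoglycan of secretory granules, was nearest at a distance of 0.11, with 10.6, 367 and 115 FPKM. It was followed by H19, a long noncoding RNA, at 0.17 with 3.83, 150.2 and 55.2 FPKM. Plaur, the urokinase receptor, was next at 0.20 with 2.21, 107 and 30.7 FPKM, followed by the upstream Hba-a2 locus at 0.21 and Wfdc18 at 0.27 with 17.5, 459 and 203 FPKM. Hbb-bs ranked 43, at a distance of 1.47, because its ratios to day 0 were smaller, with log2 values of 3.87 and 2.33. With 3 group values many loci can look alike, so the ranking is a description only.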

How the data were processed

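RNA was measured in 6 corneal samples, 2 in each of 3 groups. The deposited table gives FPKM per gene for each group, with both samples pooled by the authors, and a lower and upper bound whose confidence level is not given in the sources used here. Per the submitters' processing notes, Cuffdiff and Cufflinks 2.2.1 were used after alignment tools Bowtie2 2.2.6 and TopHat2 2.1.0, with the mouse build mm10. The depth per sample is unknown, since FPKM carries no read counts, and the spread between samples cannot be seen. There were 0 columns of values without a group.

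Ratios were computed on log2(FPKM + 1). The call rule (at least 2-fold, at least 1 FPKM in the higher group, intervals not overlapping, status OK) was applied to the whole table and tested on simulated data. Rows that merge several genes were left out of the lists, and of several rows with 1 symbol the row with the highest FPKM was used. Python 3.11.15 with numpy 2.4.6, pandas 2.3.3, matplotlib 3.10.9 and edlib 1.3.9.post1 were used. Positions and transcripts come from GENCODE M21. The members and lists were chosen with earlier results of these data known. The text names all members, listed pathway genes that were apart and up to 2 others of each list with the highest FPKM, and up to 2 markers of each list. Genes named outside that rule (Fthl17, Hba-x, Hbb-y, Cd163, Hpx, Ireb2, Heph, Hamp, Slc4a1, Kdr, Alb and Fga) were chosen after their values were seen. Alternatives were other pseudocounts, filters, fold thresholds, scalings and row rules. Protein sequences were not used here, and a few listed genes are not reported here by name.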

Additional observations from a re-analysis of the deposited data

How the results depend on the processing

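No paired analysis was possible because the deposited values pool the samples of each group, and for the same reason leaving out each sample was not run. Of the counts of members apart from day 0 at day 15 (5 in the report), a pseudocount of 5 gave 3 and ignoring the intervals gave 8. Between day 15 and day 5, where 0 members were apart, ignoring the intervals gave 3 lower (both Hba-a2 loci and Hp) and summing the rows of 1 symbol gave 1 lower (Hba-a2). For the other pathway genes, ignoring the intervals gave 15 in place of 6 at day 5, 14 in place of 5 at day 15 and 4 in place of 1 between the burn times, where a 4-fold threshold gave 0. Either rescaling shifted day 5 over day 0 by 0.10 (log2) before the pseudocount was added, and low genes by less after it, and the Slc11a2 ratio changed sign to 0.002. Hp at day 15 was no longer apart with a pseudocount of 5, a minimum of 5 FPKM or a 4-fold threshold, and Slc40a1 was not with a pseudocount of 5, nor at day 5 with a 4-fold threshold. Over 119 single values per comparison, 111, 112 and 116 kept their direction and call. Low levels and intervals of about 50% limit what can be told apart.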

Other observations

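Other genes known for iron-responsive elements were examined in the same way. Alas2 held the pattern in its 5′ untranslated region with all 5 pairs, and Cdc14a, a phosphatase, held it in its 3′ untranslated region with 4 of 5. The pattern was found 0 times in the annotated 5′ untranslated region of Epas1, a hypoxia-inducible factor, which says only that these letters are not in that window.

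Epas1 had 60.7 FPKM (35.1 to 86.3) at day 0, 29.6 (17.4 to 41.8) at day 5 and 42.1 (25.03 to 59.1) at day 15. The day 5 value was 2.05-fold lower than that of day 0, with overlapping intervals. Cdc14a had 2.58, 3.40 and 3.29 FPKM and was not apart in any comparison.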
